A study of Harpegnathos saltator with 36 samples.

Results

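Among 18429 gene rows measured in single ant brains, 29 genes had lower counts after siRNA against the corazonin receptor (CrzR) than after a control siRNA in most comparisons of 1 brain with another. The 29 members were chosen by the counts of that same siRNA comparison: a gene was taken if its normalised count was lower in the CrzR siRNA brain in at least 68 of the 81 possible pairs of a CrzR siRNA and a GFP siRNA brain, and if the ratio of the GFP siRNA mean to the CrzR siRNA mean was at least 1.3. The members' difference between the siRNAs is therefore given as a description, with no test. Their relation to library depth, to the numbering of the samples, to each other and to gene length was no condition of the rule and is reported beside it. A choice on the siRNA contrast can still shape these relations, so comparisons of the members with all genes are descriptions. The files give the members by ID only and none of the IDs could be paired with a gene name, so no role is given for any of them.

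Harpegnathos saltator is an ant in which workers duel for reproductive status when the queen is lost. Ants of both groups were taken on day 6 of such a transition after 3 days of dueling, and moved to new nests of 6 ants, of which 3 received each siRNA. The head of each ant was injected with 0.5 µl of Dicer-substrate siRNA at 5 µM, complexed with in vivo-jetPEI, directed either at CrzR or, as the control, at GFP, which ants lack. Brains were dissected without the optic lobes 1 day after injection, and strand-specific libraries of polyadenylated RNA were made from 1 brain each, with 9 brains per siRNA. No genotype, strain or age beyond this is given in the sources used here, nor which brains shared a nest. The siRNA was injected into the head and was not directed at a cell type, and how far it spread was not measured here. The level of CrzR itself and the brain markers were not analysed here, since both need gene names, so neither the knockdown nor the dissection is checked against the counts.

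Corazonin is an insect neuropeptide made by a small set of neurosecretory cells. It acts through CrzR, a G protein-coupled receptor, and belongs with adipokinetic hormone and the vertebrate gonadotropin-releasing hormone to a family of related peptide signals. In Harpegnathos it is known as a peptide that is more abundant in worker brains than in those of reproductive ants, and that favours worker behaviour such as hunting. The siRNA comparison addresses which brain transcripts differ when its receptor is targeted.

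Total counts over all 19198 rows ran from 9741263 to 24166021 per brain. Values below are counts divided by DESeq2 size factors (normalised counts), unless a level per gene length is named (RPKM, reads per kilobase of gene, scaled by each brain's own total of gene counts). Of the 18429 genes, 7550 had a mean of at least 10 CPM (counts scaled to a common library total), and 7311 of them also met the other conditions of the rule, namely not to be among the 150 most abundant genes and to vary at most 10-fold within at least 1 group. In these 7311 genes, 52 were lower in at least 68 pairs and 29 of the 52 also had a ratio of at least 1.3. With 9 brains per siRNA, many unchanged genes among 7311 can meet the pair condition alone, so these numbers carry little by themselves. They were not compared with permuted group labels. The same rule turned around gave 70 and 50 genes higher after CrzR siRNA. The lower list was the longer of the pair in 4 of 34 alternative settings: 48 against 32 genes without CrzR siRNA replicate 3, 337 against 219 after adjustment for depth, 74 against 70 after adjustment for the numbering of the samples, and 167 against 155 within the low numbers. The edge of the list was densely filled: 10 members sat at exactly 68 pairs, and 9 genes with a sufficient ratio sat at 67 pairs. Just inside on pairs were Hsal_07179 and Hsal_10411 (68 pairs, ratio 1.34 each), and just outside were Hsal_11627 and Hsal_12099 (67 pairs, ratios 1.83 and 1.78). Just inside on the ratio were Hsal_15482 (1.32) and Hsal_09061 (1.33), and just outside were Hsal_17327 and Hsal_11474 (1.29 each). The number of members depended on single brains. It rose to 112 without GFP siRNA replicate 8, 78 without GFP siRNA replicate 6, 58 without CrzR siRNA replicate 2, 48 without CrzR siRNA replicate 3 and 46 without CrzR siRNA replicate 5. It fell to 10 without GFP siRNA replicate 7, 12 without CrzR siRNA replicate 8, 14 without CrzR siRNA replicate 4, 14 without GFP siRNA replicate 4, 16 without GFP siRNA replicate 2 and 18 without GFP siRNA replicate 3. With library size alone as the scaling, only 6 genes met the rule and 81 met its mirror image.

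edgeR's quasi-likelihood test across 10132 genes called 0 genes (0.0%) between the siRNAs at an adjusted p under 0.05, members included, and 820 genes had an unadjusted p under 0.05. DESeq2 called 3 genes, of which 1 was lower after CrzR siRNA (0.0099% of its 10096 tested genes) and 2 were higher (0.0198%). The lower one was the member Hsal_01481. The authors' deposited table lists 4 of 18429 genes (0.0217%) at an adjusted p under 0.05, and 1 of them is a member, again Hsal_01481. Since the same contrast chose the members, nothing is read from these counts. The edgeR log2 fold changes of the members ran from -1.32 to -0.39, with a median of -0.53 against 0.0011 over all genes tested. In the authors' deposited table they ran from -1.33 to -0.40. In whole brains, fewer cells of a type and less RNA per cell cannot be told apart in any of these values.

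Hsal_01481 was the member with the clearest order. Its normalised counts were 294, 430 and 502 (lowest, median, highest) after CrzR siRNA, and 515, 835 and 1173 after GFP siRNA. Every CrzR siRNA brain was lower than every GFP siRNA brain. It was 1 of 7311 genes (0.0137%) whose groups did not overlap in this direction. The means were 427 ± 63.6 and 801 ± 241 (SD, n = 9 each), a ratio of 1.88. The GFP siRNA brains were spread more widely than the CrzR siRNA brains, with coefficients of variation of 30.0% and 14.9%. Within the GFP siRNA group, replicates 2, 6 and 8 were at 549, 515 and 549, close to the highest CrzR siRNA brain, and the other 6 were at 760 or more.

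Hsal_04932 came second, with 75 lower pairs. Its counts were 1964, 2403 and 3136 after CrzR siRNA and 2292, 3646 and 5626 after GFP siRNA. The groups overlapped through 1 low control, GFP siRNA replicate 6 at 2292, and through GFP siRNA replicate 8 at 3083. The means were 2425 ± 400 and 3899 ± 1105 (SD, n = 9 each), a ratio of 1.61.

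Hsal_00622, with 73 lower pairs, showed the opposite balance of spread. Its counts were 743, 1252 and 2182.3 after CrzR siRNA and 1552, 1780 and 2256 after GFP siRNA. After CrzR siRNA, 8 of 9 brains were below every control, and replicate 3 was near the top of the controls. Its ratio was 1.37, with a coefficient of variation of 28.9% after CrzR siRNA and 12.6% after GFP siRNA.

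**Figure D1:**
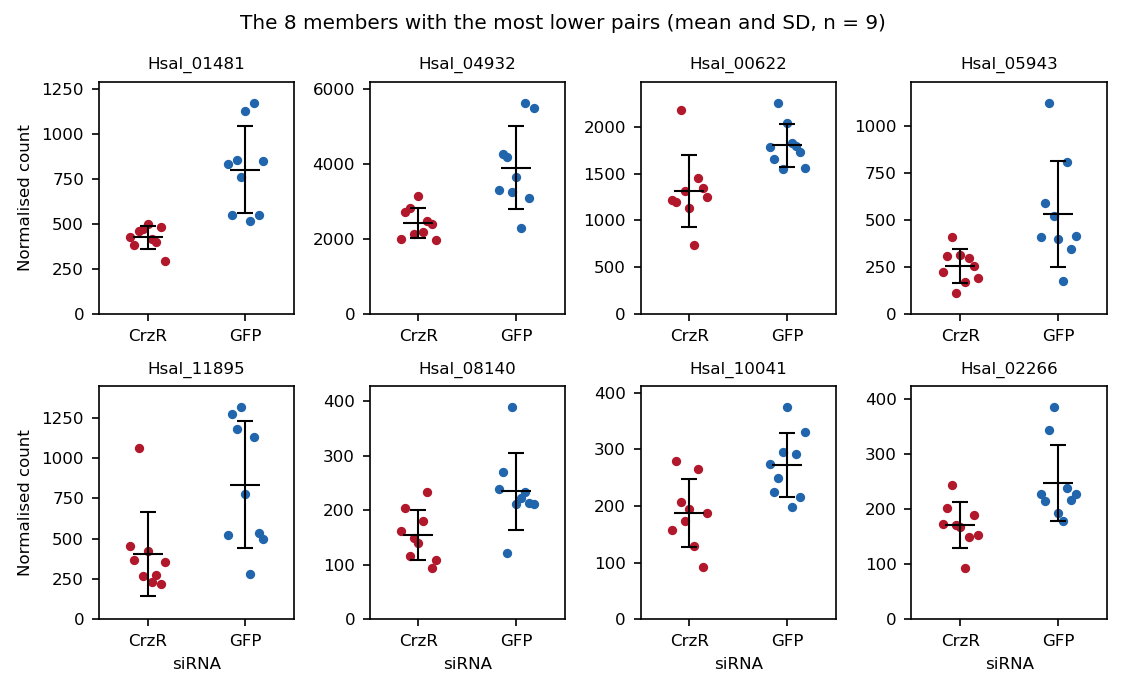
Normalised counts of the 8 members with the most lower pairs, by siRNA. Each point is 1 brain, and the bars are the mean and SD (n = 9 per group). The groups are apart for Hsal_01481, and each of the other 7 members has brains of 1 group within the range of the other.

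Hsal_05943 and Hsal_11895 followed with 72 lower pairs each and had wide groups. Hsal_05943 was at 113, 256 and 409 after CrzR siRNA and at 177, 417 and 1124 after GFP siRNA, a ratio of 2.10. Hsal_11895 was at 217, 352 and 1060 after CrzR siRNA and at 281, 774 and 1314 after GFP siRNA, a ratio of 2.06. In both genes the lowest control was GFP siRNA replicate 6. In Hsal_11895, CrzR siRNA replicate 3 was at 1060 while the other 8 brains of its group did not exceed 455.

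Of the next members, Hsal_08140, Hsal_10041, Hsal_02266 and Hsal_15482 each had 71 lower pairs and Hsal_10580 had 70. Hsal_08140 was at 93.9, 150 and 233 after CrzR siRNA and at 121, 222 and 388 after GFP siRNA. Hsal_10041 was at 92.6, 188 and 280 against 199, 273 and 374. In Hsal_08140 a single control, GFP siRNA replicate 3, fell among the lower CrzR siRNA brains, and the other 8 were at 211 or more. Hsal_02266 was at 93.4, 171 and 244 against 179, 227 and 385. Hsal_15482 was at 183, 229 and 298 against 243, 322 and 382. Both overlapped between the highest CrzR siRNA brains and the lowest controls, and in each of them 6 CrzR siRNA brains were below every control. Hsal_10580 was at 1799, 2642 and 3244 against 2383, 3504 and 5108, a ratio of 1.39.

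Hsal_13198 had the largest ratio of the 29, 2.52, and also the largest spread. Its counts were 91.6, 2079 and 5111 after CrzR siRNA and 1454, 4830 and 13799 after GFP siRNA. The means were 2202 ± 1465 and 5549 ± 3718 (SD, n = 9 each), with a coefficient of variation of 66.5% after CrzR siRNA and a similar one after GFP siRNA. CrzR siRNA replicate 2, at 91.6, was far below the other brains of its group, the next of which was at 788. GFP siRNA replicate 9, at 13799, was the highest of all 18 brains. The gene entered at exactly 68 pairs. It met the 10-fold range condition only through the GFP siRNA group, where it ran from 167 to 1107 RPKM, against 10.1 to 508 RPKM after CrzR siRNA. Without the range condition the list held the same 29 genes.

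Per gene length, the 3 members with the highest levels were Hsal_13197 at 543 RPKM over the 18 brains, Hsal_13198 at 385 RPKM and Hsal_13640 at 323 RPKM. Hsal_13197 was at 486 ± 96.1 RPKM after CrzR siRNA and 600 ± 95.3 RPKM after GFP siRNA (SD, n = 9 each). Its 9 CrzR siRNA brains ran from 7891 to 14311 normalised counts and its controls from 10333 to 17583, and 6 of the 9 were below every control. Hsal_13640 was at 276 ± 66.3 RPKM and 369 ± 71.7 RPKM, with 3 CrzR siRNA brains below every control. The lowest level of a member was 4.39 RPKM, in Hsal_10411. Over all 29 members, ratios ran from 1.32 to 2.52.

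**Figure D2:**
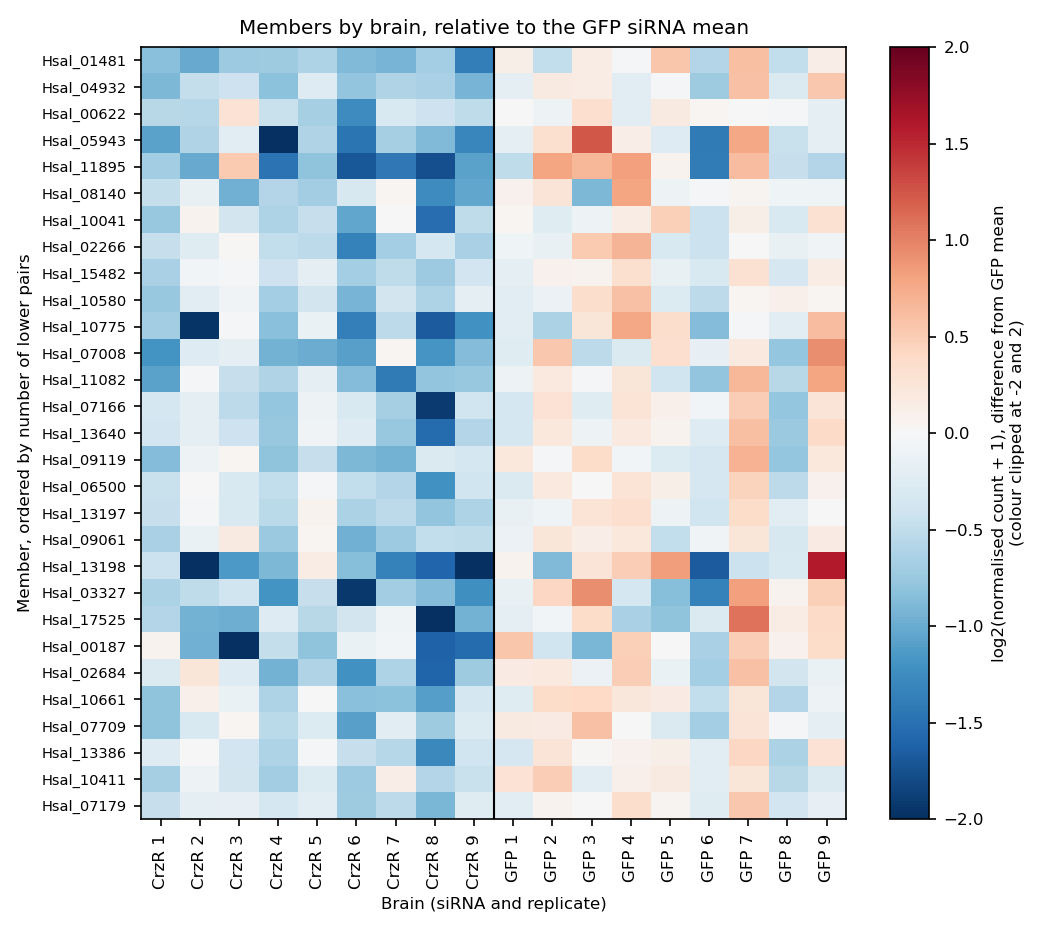
Colour map of the 29 members (rows, by number of lower pairs) in the 18 brains (columns), as the difference of log2(normalised count + 1) from the mean of the GFP siRNA brains. Blue cells are below that mean and red cells above it. CrzR siRNA replicates 4, 6, 8 and 9 are below it in all 29 members, and GFP siRNA replicates 6 and 8 are below it in 28 and 25.

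The members were not lowered evenly over the brains. On the same log2 scale, the median over the 29 members was lowest in CrzR siRNA replicate 8 (-0.92) and replicate 6 (-0.87), and highest within that group in replicate 2 (-0.19). In the controls it ran from -0.42 in replicate 6 to 0.41 in replicate 7. The groups therefore overlapped in their medians: GFP siRNA replicates 6 and 8, the latter at -0.33, were lower than CrzR siRNA replicates 2, 3 and 5. Each brain enters 261 of the members' pairs. GFP siRNA replicate 6 went against the members' direction in 102 of its 261 pairs and replicate 8 in 76, while GFP siRNA replicate 7 did so in 3. Among the CrzR siRNA brains the exceptions were most frequent in replicate 3 (78), replicate 2 (67) and replicate 5 (61), and least in replicate 8 (8). GFP siRNA replicates 6 and 8 had the deepest libraries of their group, at 21883963 and 23581498 gene counts, and replicates 7 and 9 the shallowest, at 11471654 and 9979706. The CrzR siRNA brains showed no such order: the shallowest, replicate 6 with 9508039 gene counts, had nearly as low a median as the deepest, replicate 8 with 23749133. The part of depth in the members' order was not tested.

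The relation to depth was tested within the siRNA groups, with edgeR and a model of group and log2 gene counts. Deeper libraries also tended to hold a smaller share of small nuclear RNA. It was 1685 CPM in CrzR siRNA replicate 6 and 1625 CPM in GFP siRNA replicate 9, the shallowest of each group. In the deepest, replicate 8 of each group, it was 299 and 129 CPM. The order was not strict, with 235 CPM in CrzR siRNA replicate 4. Depth and this share were not told apart in the model. Over all genes, 24.9% were called lower and 32.5% higher in deeper libraries at an adjusted p under 0.05. Among the 7309 tested genes that met the level and range conditions of the rule, the shares were 27.8% and 36.1%. Of the 29 members, 5 were called lower and 1 higher, which are smaller shares than those of either set. These shares are not fully independent of the choice, since a wide spread within groups makes the pair condition harder to meet. The depth coefficient was below 0 in 23 of 29 members, with a median of -0.22 log2 units per doubling of counts, and in 43.1% of all genes tested, with a median of 0.14. In the 50 genes of the mirrored rule the median was 0.41, with 22 called higher and 0 called lower.

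Hsal_13640 and Hsal_07166 had the smallest p among the members that were lower in deeper libraries. In Hsal_13640 the coefficient was -0.66 log2 units per doubling (edgeR adjusted p = 0.000995), and in Hsal_07166 it was -0.62 (edgeR adjusted p = 0.00784). The deepest CrzR siRNA brain, replicate 8, had the lowest count of all brains in both genes, at 604 and 638, and the deep GFP siRNA replicate 8 had the lowest of the controls, at 1046 and 1398. The other called members were Hsal_13386 (-0.47), Hsal_06500 (-0.39) and Hsal_13198 (-1.16), with edgeR adjusted p of 0.0127, 0.0418 and 0.0478. Hsal_00622 was higher in deeper libraries, with a coefficient of 0.46 (edgeR adjusted p = 0.0147). The next in that direction, Hsal_07709, was at 0.27 and did not pass (edgeR adjusted p = 0.236). Hsal_13640, Hsal_07166 and Hsal_13386 passed the threshold whichever brain was left out, while Hsal_00622 did not pass when CrzR siRNA replicate 6 or GFP siRNA replicate 3 was removed. Without the 4 shallowest brains, Hsal_00622 and Hsal_13198 did not pass. Hsal_06500 passed in 11 and Hsal_13198 in 7 of the 18 fits that left out 1 brain. Hsal_06500 failed it when replicate 5, 7 or 8 of the CrzR siRNA brains or replicate 1, 6, 7 or 8 of the controls was removed. Hsal_13198 failed it when replicate 1, 5, 7, 8 or 9 of the CrzR siRNA brains or replicate 1, 2, 5, 6, 8 or 9 of the controls was removed.

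**Figure D3:**
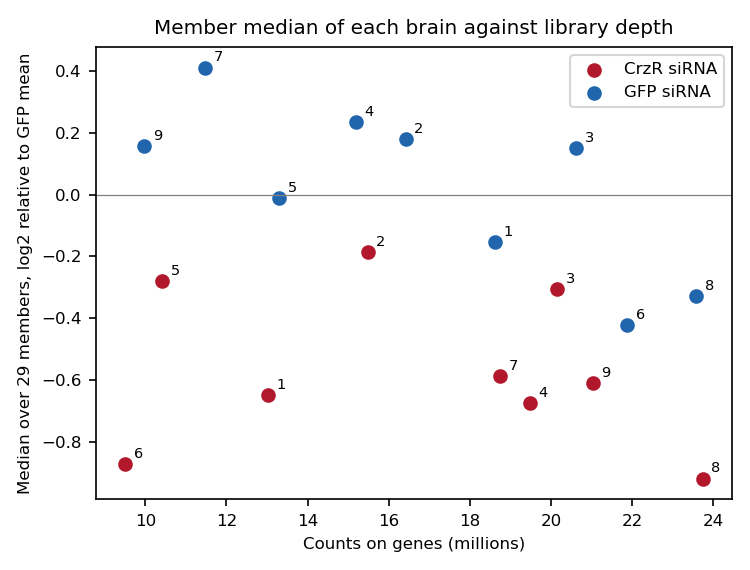
Median over the 29 members in each brain (log2 relative to the mean of the GFP siRNA brains) against the number of counts on genes (the axis is in units of 1e6 counts). Each point is 1 brain with its replicate number. The lowest controls, replicates 6 and 8, are the deepest of their group, and the CrzR siRNA brains reach from -0.92 to -0.19.

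A term for a different slope on depth in the CrzR siRNA brains called 0 of 10132 genes (0.0%), members included, and 369 genes had an unadjusted p under 0.05. The members' median of that term was 0.34 log2 units per doubling, against 0.02 over all genes tested.

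The sample labels carry internal reference numbers that fall into a high and a low series. In the sources used here, the meaning of the series is not given. The high series held 5 CrzR siRNA and 3 GFP siRNA brains, the low series 4 and 6. Within each series, every member had a higher mean in the GFP siRNA brains, as the choice of the members on all brains makes likely. The ratio was smaller in the high series in 25 of 29 members, with a median of 1.37 (1.16 to 2.59) and 11 to 15 of 15 pairs lower, and in the low series the median was 1.68 (1.24 to 3.71) and 19 to 24 of 24 pairs lower. That difference between the series was not tested. Hsal_13198 had ratios of 1.63 in the high and 3.71 in the low series, and Hsal_10775 of 1.35 and 2.51. The ratio was larger in the high series in 4 members: Hsal_05943 (2.59 against 1.94), Hsal_07709 (1.60 against 1.32), Hsal_10411 (1.54 against 1.24) and, by a narrow margin, Hsal_09119 (1.494 against 1.492).

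With group in the model, edgeR called 0 of 10132 genes (0.0%) between the series, members included, and 636 genes had an unadjusted p under 0.05, 2 of them members. Of the 29 members, 26 were higher in the high series, with a median of 0.17 log2 units against -0.02 over all genes tested. Hsal_10661 was 0.40 log2 units and Hsal_11895 0.69 log2 units higher in the high series (edgeR adjusted p = 0.776 for both). In the other direction, Hsal_00187 was at -0.14 (edgeR adjusted p = 0.954) and Hsal_08140 at -0.10 (edgeR adjusted p = 0.959). The series are spread unevenly over the groups, so this coefficient is not fully independent of the choice of members.

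The members also varied together from brain to brain within the groups. Taking each member's deviations from its group mean over the 18 brains, the 406 pairs of members had a median correlation of r = 0.38, and 86.9% were positive. Over all 26721705 pairs of the 7311 genes the median was 0.0023 and 50.1% were positive. The pairs within the mirrored list had a higher median than the members, 0.48, with 79.8% positive. Members and genes of the mirrored list went in opposite directions, with a median r of -0.37. These genes share libraries and therefore depth. With the depth trend of each gene removed, the median over member pairs was 0.43, against 0.42 in the mirrored list and 0.01 over all pairs. A list chosen on a group contrast can pick up genes that vary together for other reasons, and these correlations are given as a description.

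A set of 4 members was tightly correlated, namely Hsal_07166, Hsal_13640, Hsal_06500 and Hsal_13386, all of which were among those lower in deeper libraries. Their 6 pairs had r from 0.91 to 0.97 over 18 brains, from 0.92 to 0.97 within the CrzR siRNA brains and from 0.90 to 0.98 within the GFP siRNA brains. With the depth trend removed, r was still between 0.85 and 0.95, but the set was then less clearly bounded. Hsal_06500 was closer to Hsal_07179 (r = 0.93) and Hsal_10661 (0.92), outside the set, than to Hsal_07166 (0.85). Such closeness also occurred outside the list. Each of the 4 had between 203 (Hsal_06500) and 994 (Hsal_13640) of the 7310 other genes at r above 0.9, and pairs above 0.9 made up 1.48% of member pairs and 2.71% of all pairs. With the depth trend removed, the shares were 1.48% and 0.508%. Outside this set, at most 6 genes followed any member at r above 0.9 (Hsal_10661).

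Other members went their own way. Hsal_13198 had a median r of -0.04 with the other 28 members, Hsal_00187 of 0.0015 and Hsal_08140 of 0.02. Hsal_01481, the first member, had a median r of 0.25 with the others and was closest among them to Hsal_04932 (r = 0.58). Among all 7310 other genes the ones most like it were Hsal_13711 (r = 0.72), Hsal_15819 (0.67) and Hsal_10320 (0.67), none of which is a member. The lowest r between members was -0.59, between Hsal_00622 and Hsal_00187. Hsal_13197 and Hsal_13198 were the only members with consecutive IDs, and their counts did not move together (r = 0.0084). The IDs are not placed on a genome here, so whether members overlap or share reads with similar genes is not known from the files.

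**Figure D4:**
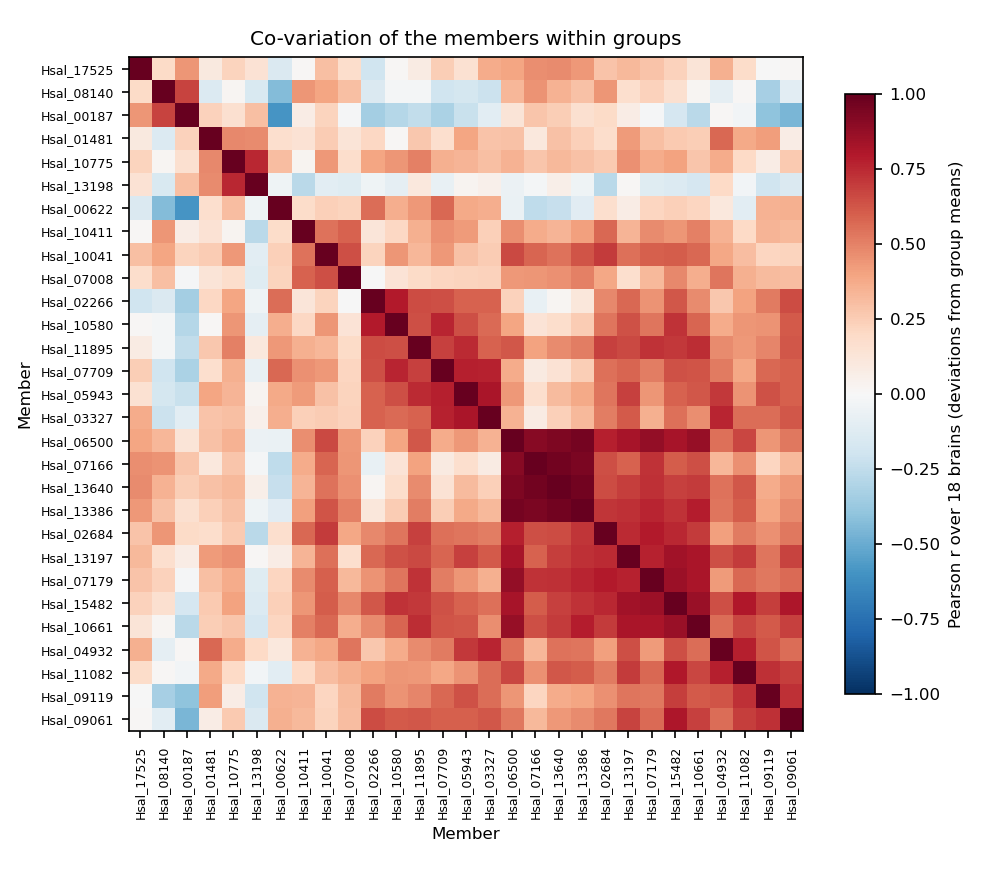
Correlation (Pearson r over 18 brains, deviations from the group mean) between each pair of the 29 members, in the order of a clustering of the same values. Red is positive and blue negative. The dark block is the set of Hsal_06500, Hsal_07166, Hsal_13640 and Hsal_13386 (r from 0.91 to 0.97), and Hsal_08140, Hsal_00187, Hsal_13198 and Hsal_00622 are pale or blue against most others.

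The members were short for genes that could have met the rule, and abundant per gene length. Their median length was 1387 bases (292 in Hsal_13640 to 8062 in Hsal_04932), against 1973 bases over the 7311 genes and 3300 bases in the mirrored list. Of the 29 members, 12 (41.4%) were at most 1000 bases long, against 19.6% of the 7311 genes and 2 of 50 mirrored genes. Their median level was 55.5 RPKM, against 25.0 RPKM over the 7311 genes and 6.66 RPKM in the mirrored list. RPKM divides by length, so the 2 traits are not separate. In CPM the medians were closer for members and the 7311 genes, 64.4 and 47.9, with lower quartiles of 24.3 and 25.2, and 20.5 was the median of the mirrored list. The members varied about as much within groups as other genes did, with a median coefficient of variation of 28.4% after CrzR siRNA and 27.6% after GFP siRNA, against 26.2% and 28.4%. The GFP siRNA group had the larger coefficient in 16 of the 29 members (55.2%) and in 58.1% of the 7311 genes.

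Each brain's own trend over gene length was then compared between the groups. The slope of log2 level on length, per doubling of length, was 0.058 ± 0.163 after CrzR siRNA and -0.058 ± 0.139 after GFP siRNA (SD, n = 9 each, two-sided exact permutation test over 48620 assignments, p = 0.1205). The median of genes up to 1000 bases minus that of genes over 3000 bases was -0.22 ± 0.565 and 0.21 ± 0.519 log2 units (two-sided exact permutation test, p = 0.1087). Both differences were smaller than the SD within either group, which does not exclude a difference between the groups. The slope also tended to rise with library depth. It was highest in the deepest brain of each group, replicate 8 of CrzR siRNA (0.41) and of GFP siRNA (0.22). In the 4 shallowest brains it was -0.21 to -0.045, though deeper brains such as GFP siRNA replicate 3 (-0.092) were also below 0. That relation was not tested, so gene length and depth were not told apart here. Removing each brain's length trend left 20 genes that met the rule, 12 of them among the 29. The 17 members that dropped out were all 12 of at most 1000 bases and 5 longer ones, among them Hsal_15482 (1300 bases) and Hsal_11082 (4797 bases). Not all of them lost their order. Hsal_13640 (77 lower pairs, ratio 1.18), Hsal_13386 (75, 1.22), Hsal_06500 (74, 1.21), Hsal_15482 (72, 1.26) and Hsal_13197 (69, 1.29) failed the ratio only. Hsal_00187 and Hsal_17525, among others, failed the pairs only, at 67 with ratios of 1.78 and 1.68. Others, such as Hsal_00622 (61, 1.25) and Hsal_09119 (58, 1.19), failed both. Hsal_01481, Hsal_04932, Hsal_11895 and Hsal_02266 stayed. The part of gene length in the members' difference was not otherwise tested.

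**Figure D5:**
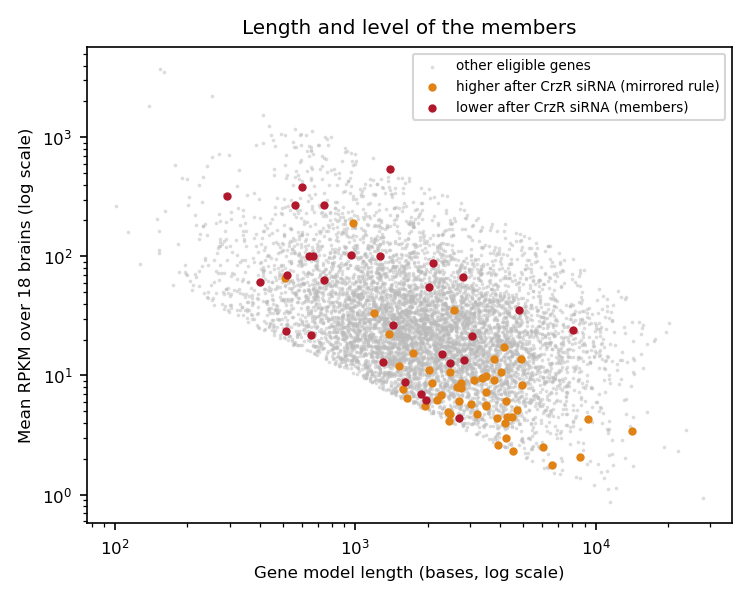
Mean level over 18 brains (RPKM, log scale) against gene model length (bases, log scale) for the 7311 genes that met the conditions on level and range. Red points are the 29 members, orange points the 50 genes of the mirrored rule and grey points the others. The members have a median of 1387 bases and 55.5 RPKM, and the mirrored genes of 3300 bases and 6.66 RPKM.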

How the data were processed

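Per the labels' protocols, brain RNA was extracted with TRIzol and 1 strand-specific (dUTP) library was made per brain. STAR 2.5.0b and DESeq2 are the tools listed in the submitters' processing notes. The genome build, the counting tool and its strand setting count as not given in the sources used here. Deposited counts are whole numbers per feature for 18 brains, with the 2 technical runs of each brain added together. No column belonged to another sample (0). The deposited RPKM columns were divided by library totals other than the brain's own, so they served only to recover gene lengths (whole numbers for 15941 genes), and RPKM was recomputed from counts, lengths and gene count totals. The columns of the authors' deposited table are, per the file headers, the mean signal of a gene (baseMean), its log2 fold change and its p-values.

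The 769 rows of ribosomal and other non-coding RNA stayed out of the gene count totals but are part of the total counts per brain. Ribosomal RNA took 0.444% to 3.14% of the total counts. Genes with a mean of at least 1 RPKM (10132) were tested in R 4.3.3 with edgeR 4.0.16 (TMM, quasi-likelihood F test, two-sided, Benjamini-Hochberg). The terms were group; group and log2 gene counts; group and reference number series. Alternatives used DESeq2 1.42.0 and limma 3.58.1, other thresholds and scalings, and each brain left out. Simulated data with known changes served to check the rule and the edgeR fits. The reference table (14329 genes, assembly Hsal_v8.6) shared 0 IDs with the 19198 rows.

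The members, the rule and the lists were chosen with earlier results of these data known. The genes named are the first 10 members by lower pairs, the 3 largest ratios, the 3 highest RPKM, the genes next to each threshold, the 2 smallest p in each direction for depth and for series, and members with consecutive IDs. Members named for how they co-varied, for their length or for their ratio within a series, and the other members called on depth, were chosen after their values were seen.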

Additional observations from a re-analysis of the deposited data

Results flagged for a closer look

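Of the 58 groups of 9 brains examined (29 members in each of 2 groups), 3 held a brain far from the others of its group by Dixon's test at its 95% critical value. Chance flags about 1 in 20 groups. In Hsal_00622, CrzR siRNA replicate 3 had 2182.3 normalised counts, where the other 8 brains had 743 to 1452. In Hsal_11895, the same brain had 1060.2, where the others had 217 to 455. In Hsal_17525, GFP siRNA replicate 7 had 574.33, where the others had 154 to 353. No cause was tested.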

How the results depend on the processing

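The list changed with its own settings and with single brains. It held 6 genes (all members) with library size alone, 76 at 64 pairs or more, 3 at 73 pairs or more and 13 at a ratio of 1.5, and 337 after adjustment for depth (24 members) or 74 for series (27 members). Within the high series 92 genes met the rule (13 members) and within the low series 167 (24 members). Without each brain in turn it held 10 to 112 genes, and 7 members were in all 18 of these lists (Hsal_01481, Hsal_02266, Hsal_04932, Hsal_05943, Hsal_08140, Hsal_10041 and Hsal_11895). Leaving out the 4 brains with the fewest counts left 20 genes, 7 of them members; this setting, the length trend and the depth slope term were added after seeing the data. Scaling by library size alone moved the median of the 7311 genes by 0.11 log2 units. Between the siRNAs, DESeq2 called 3 genes; without each brain edgeR called 0 to 2 (1 without CrzR siRNA replicate 5, 2 without GFP siRNA replicate 8). The cause of these changes was not tested. Other alternatives called 0. With the replicate block 0 genes were called (1222 at unadjusted p under 0.05), and 5 members on depth, with 4 of the 6 calls lost (Hsal_06500, Hsal_07166, Hsal_13198 and Hsal_13386) and 3 gained (Hsal_00187, Hsal_04932 and Hsal_11082); the 9 same-numbered correlations ran from -0.555 to 0.754, so the numbers were not taken to pair brains. Members called on depth numbered 4 to 9 over alternatives, and on series 0. The shallowest brain had 9741263 counts over all rows and 9508039 gene counts.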
